A study of Mus musculus with 6 samples.

Results

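The genes described here are 29 genes active in the ocular lens, though some are also made in other tissues. They comprise 16 crystallins, 9 genes of fiber cells and their membranes, and 4 lens transcription factors. They were measured in retinal pigmented epithelium (RPE), the pigmented layer behind the neural retina, dissected from mouse embryos at E15.5. A gene was followed through the probe set that carries its symbol and no other, and where there were several, through the one with the highest mean. By this rule 28 of the 29 genes were measured, each by 1 probe set, out of 19938 genes that a probe set measures singly. *Cryge* was not measured alone, because its probe set also carries the symbol of *Crygf*.

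All embryos, control and mutant, carried *Pax6* alleles flanked by loxP sites (Pax6loxP/loxP). Embryos of the mutant group (Pax6loxP/loxP;DctCre) carried in addition a Cre transgene under the *Dct* promoter, which is active in the outer layer of the optic cup, and which removes the exons for the paired domain of PAX6. The RPE of several embryos was pooled by the intensity of its pigment, so that an array stands for a pool, and there were 3 arrays of each label. The paper used littermates as controls, but which pools shared litters is not given in the labels. The groups were compared without pairing, so p-values measure the spread between pools only. The arrays (Affymetrix Mouse Gene 1.0 ST) give a log2 signal for each probe set, on which 1 unit is a doubling.

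The lens is a ball of epithelial cells and elongated fiber cells in front of the retina, separate from the RPE. Its fibers are filled with crystallins. The alpha-crystallins are small heat shock proteins, and the beta- and gamma-crystallins form a separate family of compact structural proteins. Fibers also make their own membrane and cytoskeletal proteins, and their genes are driven by factors such as MAF, SOX, PROX1 and HSF4, with PAX6 upstream in the formation of the lens.

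*Pax6*, the deleted gene, read 9.15, 9.02 and 9.22 (log2 signal) on the control-labelled arrays and 9.0, 8.97 and 8.74 on the mutant-labelled arrays. Its log2 difference was -0.23 (standard error 0.09, limma adjusted p = 0.73), which is a partial check of the labels at most, since RNA that lacks only the paired-domain exons can still be made. A signed value is always mutant-labelled minus control-labelled. This direction opposes that of the study: of 90 entries of the authors' table of group means that could be matched to the arrays, 89 matched within 0.1 on the log2 scale with the group names exchanged and 0 as labelled. None of the lens genes is in that table (0 of 100 entries), and values of single arrays do not depend on which name is right. The paper reports *Tyr* and *Tyrp1* as reduced in the mutant RPE, by array, QRT-PCR and antibody labelling. Here both were higher on the mutant-labelled arrays, by 0.67 (limma adjusted p = 0.34) and 0.94 (limma adjusted p = 0.02).

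The tissue label was set against marker genes. Pigment genes of the RPE were bright, with *Dct* between 10.13 and 10.69 on the 6 arrays, but *Rpe65* (2.25 to 2.39) and *Best1* (3.63 to 3.93), which mark mature RPE, lay under the median probe set (4.89). Markers of other tissues were bright on all arrays, such as *Col1a1* of mesenchyme (12.33 to 12.51) and *Krt5* of surface epithelium (10.66 to 11.22). Over all probe sets the arrays correlated at 0.992 to 0.995 and their medians lay between 4.86 and 4.93. Such correlations mostly reflect differences between genes, so they cannot show whether the tissue content of the arrays differed. In bulk tissue, fewer cells of a type and less RNA per cell cannot be told apart.

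Some of the crystallin genes have letters in common before their start. Shown are the 250 bases before the start of the 4 crystallin genes that varied most and, for contrast, of *Mip*, the water channel of fiber membranes, whose range over the mutant-labelled arrays was 0.31 where that of *Cryaa* was 4.47. Each is on the gene's own strand, 5′ to 3′, from RefSeq on GRCm38.p6. Capitals mark TGCTGAC (searched on both strands), the core that MAF proteins bind, CTTTTGT (both strands), a form of the element that SOX proteins bind, and TATAAA or TATATA (the gene's strand only), forms of the TATA box, overlapping matches being joined. The loci are chr17:31677681-31677930 (+ strand) for *Cryaa*, chr11:77725294-77725543 (- strand) for *Cryba1*, chr1:65103364-65103613 (- strand) for *Cryga*, chr5:112255570-112255819 (+ strand) for *Crybb1* and chr10:128225560-128225809 (+ strand) for *Mip*.
Cryaa: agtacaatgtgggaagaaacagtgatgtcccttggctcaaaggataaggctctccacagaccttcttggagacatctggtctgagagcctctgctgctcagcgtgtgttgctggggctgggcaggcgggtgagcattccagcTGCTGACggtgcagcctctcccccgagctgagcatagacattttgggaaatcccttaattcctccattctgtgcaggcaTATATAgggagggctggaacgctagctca
Cryba1: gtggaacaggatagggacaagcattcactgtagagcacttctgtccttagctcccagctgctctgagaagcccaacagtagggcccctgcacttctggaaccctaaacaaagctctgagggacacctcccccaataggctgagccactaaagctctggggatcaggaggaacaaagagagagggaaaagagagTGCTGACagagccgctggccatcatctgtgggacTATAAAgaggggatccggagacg
Cryga: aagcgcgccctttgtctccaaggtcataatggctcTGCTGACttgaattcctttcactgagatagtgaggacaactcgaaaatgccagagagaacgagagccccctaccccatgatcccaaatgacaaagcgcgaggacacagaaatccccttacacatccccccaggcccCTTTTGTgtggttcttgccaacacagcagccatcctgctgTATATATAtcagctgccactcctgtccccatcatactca
Crybb1: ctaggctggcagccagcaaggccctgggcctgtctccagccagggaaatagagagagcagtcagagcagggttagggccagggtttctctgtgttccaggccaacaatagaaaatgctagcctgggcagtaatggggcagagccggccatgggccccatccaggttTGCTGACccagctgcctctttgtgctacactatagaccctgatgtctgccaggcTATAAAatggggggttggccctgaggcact
Mip: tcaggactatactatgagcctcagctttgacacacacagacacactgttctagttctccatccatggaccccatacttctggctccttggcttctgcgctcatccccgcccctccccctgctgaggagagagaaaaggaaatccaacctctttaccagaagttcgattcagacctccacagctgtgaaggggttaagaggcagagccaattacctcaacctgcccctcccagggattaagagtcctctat
The MAF core stood in 5 of the 15 crystallin genes with a window in the table (*Cryaa*, *Cryba1*, *Cryba4*, *Crybb1* and *Cryga*), in 1 of 9 fiber genes (*Lctl*) and in 3.81% of 32851 windows of all genes. Counted from the start, it begins at -108 in *Cryaa*, -57 in *Cryba1*, -84 in *Crybb1* and -215 in *Cryga*. The SOX element stood in 7 crystallin genes (*Cryba4*, *Cryga*, *Crygc*, *Crygd*, *Cryge*, *Crygf* and *Crygn*) and 1 fiber gene (*Bfsp2*), against 4.4% of all windows. The TATA element stood in 11 of 15 crystallin genes, in *Lgsn* among the fiber genes and in *Prox1*, against 11.5% of all windows. These are matches of letters and not shown sites of binding. The motifs do not follow the levels one for one: *Crygf* and *Crygs*, with a TATA element, did not vary like the other gamma-crystallins, and *Crybb3*, which did vary, has none of the 3, nor have *Cryba2* and *Crybb2*. *Cryab*, *Hsf4* and *Maf* were not in the table.

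The first question was whether the lens genes differed between mutant-labelled and control-labelled arrays. None of the 28 passed limma's test at an adjusted p under 0.05 (0 higher and 0 lower), and 5 had an unadjusted p under 0.05 (*Cryab*, *Crygf*, *Crygs*, *Mip* and *Bfsp2*), as did 6.07% of the 23410 probe sets with a symbol. Of those probe sets, 0.282% passed as higher and 0.0812% as lower. The groups did not overlap in 3 members that were higher on the mutant-labelled arrays (*Cryab*, *Crygs* and *Bfsp2*) and in 2 that were lower (*Crygf* and *Mip*), against a background of 5.98% and 4.97% of probe sets. The median log2 difference was 0.25 over the 15 crystallins, 0.00 over the 9 fiber genes, 0.01 over the 4 factors and -0.00 over all genes. The crystallin median was -0.10 without mutant replicate 3, and without dim probe sets (those whose mean lies under the median probe set) it was 0.47, and that of the fiber genes -0.10.

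**Figure D1:**
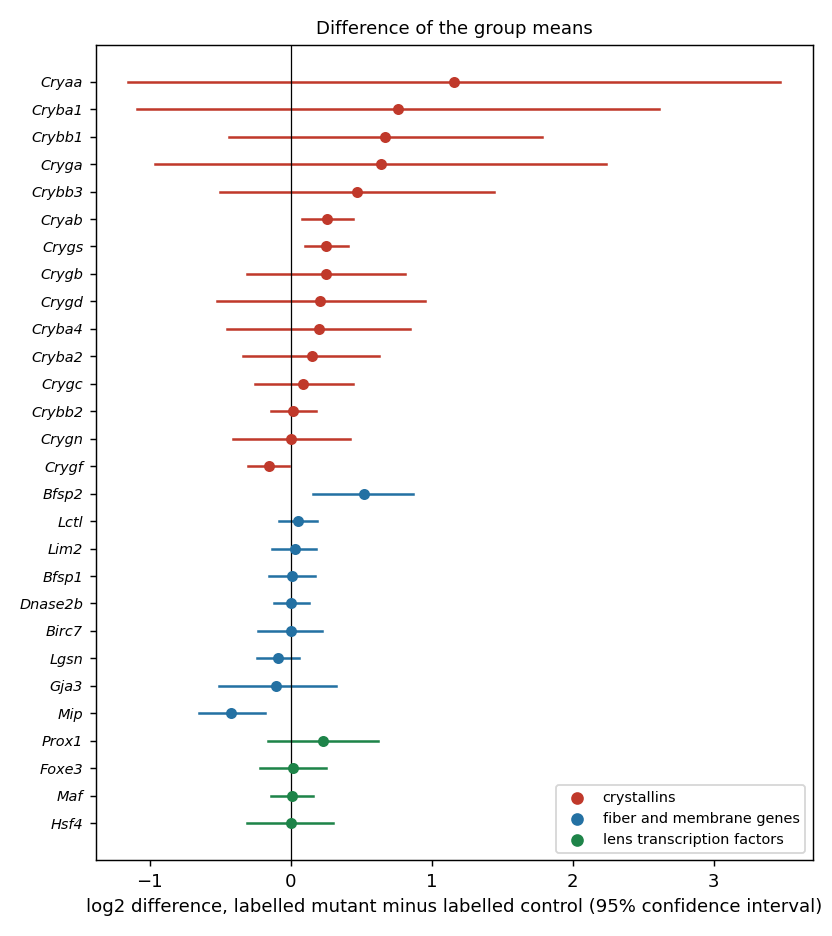
Log2 difference of the group means (horizontal axis, labelled mutant minus labelled control) for each of the 28 measured lens genes, with its 95% confidence interval from limma. The intervals of *Cryaa* and *Cryba1* reach from under -1 to over 2, while those of most fiber genes and factors stay near 0.

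The group means hide what the crystallins did, because the mutant-labelled pools differed from one another. *Cryaa*, the alpha-crystallin that is largely restricted to the lens, gave log2 signals of 5.87, 5.66 and 5.94 across the control-labelled arrays and 8.05, 4.22 and 8.69 on the mutant-labelled arrays. Replicates 1 and 3 thus lay far above every control-labelled array and replicate 2 far below every one of them. Against the control mean, replicate 1 was 4.67-fold, replicate 3 was 7.3-fold and replicate 2 was 0.329-fold. Between the highest and the lowest mutant-labelled pool the signal differed 22.2-fold (4.47 on the log2 scale), the widest such range of all 19938 genes. The 4.22 of replicate 2 lies under the median probe set (4.89). Without a detection call it cannot be told apart from no RNA, so these folds are of signal. The group means were 5.82 ± 0.14 and 6.99 ± 2.42 (SD, n = 3 each), which differ by 1.16 on the log2 scale (95% confidence interval from -1.15 to 3.47, standard error 1.0, limma adjusted p = 0.98). Every pool labelled mutant moved this difference: it was 0.63 without replicate 1 and 0.31 without replicate 3 (limma adjusted p = 1 in both), and 2.55 without replicate 2 (limma adjusted p = 0.0087), the one call of a lens gene under the settings tried.

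*Cryab*, the other alpha-crystallin, which unlike *Cryaa* is made in many tissues, did not share this pattern. It had 8.12, 8.08 and 8.33 on the control-labelled arrays and 8.44, 8.39 and 8.47 on the mutant-labelled ones. The 3 mutant-labelled pools were within 0.08 of each other and all above the controls, with a log2 difference of 0.26 (standard error 0.08, limma adjusted p = 0.51). The 2 genes of 1 protein class therefore differed in whether the pools diverged.

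Among the beta-crystallins, *Cryba1* read 4.28, 4.30 and 4.54 on the control-labelled arrays and 4.86, 3.35 and 7.19 on the mutant-labelled arrays. Its order over the pools was that of *Cryaa*, with replicate 3 highest and replicate 2 lowest of all 6, but here replicate 1 was only 0.49 above the control mean while replicate 3 was 2.82 above it. The range over the mutant-labelled pools was 3.84 (14.4-fold), the second widest of all genes. This probe set was dim on average and the values carry no detection call, so the fold is one of signal, and 3.35 on replicate 2 cannot be told apart from no RNA. The log2 difference was 0.76 (standard error 0.80, limma adjusted p = 0.99).

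*Crybb1* had 6.51, 6.33 and 6.79 against 6.88, 6.29 and 8.48, and *Crybb3* had 5.82, 5.53 and 6.06 against 6.45, 5.22 and 7.15. In both, replicate 3 was the highest array and replicate 2 the lowest. Their ranges over the mutant-labelled arrays were 2.19 (4.57-fold) and 1.93 (3.81-fold), which rank 10 and 15 among all genes. The log2 differences were 0.67 (standard error 0.48, limma adjusted p = 0.96) for *Crybb1* and 0.47 (standard error 0.42) for *Crybb3*.

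*Cryba4*, at 4.67, 4.79 and 4.93 against 4.70, 4.54 and 5.75, was high on replicate 3 only, by 0.96 over the control mean. *Cryba2* varied less, with 4.38, 4.30 and 4.19 against 4.41, 3.97 and 4.93, and a range of 0.97 over the mutant-labelled arrays. *Crybb2*, at 5.53, 5.35 and 5.45 against 5.48, 5.52 and 5.40, did not set the pools apart. *Crybb1*, *Crybb2*, *Crybb3* and *Cryba4* all lie on chromosome 5, so that a gene with a log2 difference of 0.02 and little spread sits on the same chromosome as 3 of the widest.

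Most gamma-crystallins lie together on chromosome 1 and are so alike in sequence that probes can read more than 1 of them, so the values of *Cryga* to *Crygf* are uncertain as to which gene they measure. *Cryga* had 5.42, 5.41 and 5.99 on the control-labelled arrays and 5.70, 4.94 and 8.10 on the mutant-labelled ones. Replicate 3 was 2.49 above the control mean, whereas replicates 1 and 2 were 0.10 above and 0.67 below it. The range over the mutant-labelled arrays was 3.16 (8.93-fold), rank 4 among all genes, and the log2 difference was 0.64 (95% confidence interval from -0.96 to 2.24, standard error 0.69).

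*Crygd* (2.77, 2.56 and 2.63 against 2.53, 2.34 and 3.73) and *Crygb* (3.26, 3.30 and 3.45 against 3.18, 3.35 and 4.24) were dim and were higher on replicate 3 alone, by 1.08 and 0.90 over the control mean. *Crygc* (3.93, 3.91 and 4.0 against 3.86, 3.84 and 4.43) and *Crygn* (4.62, 4.39 and 4.53 against 4.31, 4.27 and 4.98) showed smaller steps on the same array. The remaining gamma-crystallins did not step there.

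*Crygf* had 3.30, 3.32 and 3.22 against 3.18, 3.04 and 3.15, a log2 difference of -0.15 (limma adjusted p = 0.78), and *Crygs*, a gamma-crystallin outside the cluster on chromosome 16, had 3.06, 3.08 and 2.97 against 3.37, 3.19 and 3.30, a log2 difference of 0.25 (limma adjusted p = 0.39). Both probe sets were dim, and in both the 3 mutant-labelled pools lay within 0.18 of each other.

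**Figure D2:**
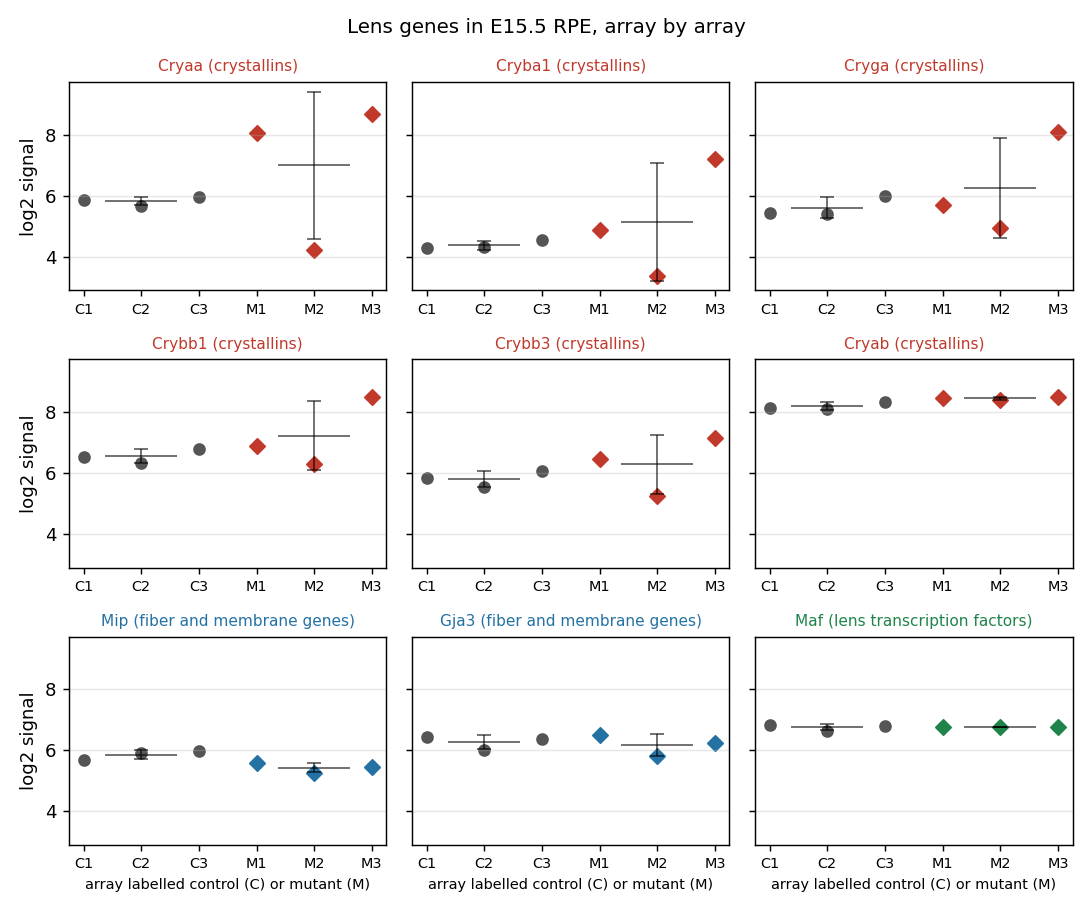
Log2 signal (vertical axis) of 6 crystallins, 2 fiber genes and *Maf* on each array labelled control (C1 to C3, grey circles) or mutant (M1 to M3, coloured diamonds), with the mean and SD of each group of 3 as bars. *Cryaa* lies at 8.05 and 8.69 on M1 and M3 and at 4.22 on M2, while *Cryab*, *Mip*, *Gja3* and *Maf* have no such step.

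The crystallins as a class were set apart by array rather than by group. Each array's deviation from the gene's median over the 6 arrays had a median over the 15 crystallins of -0.06, -0.07 and 0.07 on the control-labelled arrays and of 0.07, -0.20 and 0.92 on the mutant-labelled arrays. Replicate 3 was the highest array in 12 of 15 crystallins, 1 of 9 fiber genes (*Bfsp2*) and 0 of 4 factors, where 18.1% of all genes were highest there. Other lists were often highest there too, among them 10 of 11 mesenchyme markers, 8 of 15 muscle markers and 7 of 14 RPE markers. It lay above every control-labelled array in 13 of 15 crystallins, where 26.2% of all genes did, and below every one in 1 (*Crygf*), where 20.8% did. The 2 crystallins not above were *Crygf* and *Crybb2*.

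Mutant replicate 2 stood at the other end. It was the lowest of the 6 arrays in 11 of 15 crystallins, and in 2837 of all 19938 genes. It lay below every control-labelled array in 11 (all but *Cryab*, *Crybb2*, *Crygb* and *Crygs*) and above every one in 2, where 23% and 18.6% of all genes did so. Replicate 1 was mixed, above every control in 7 crystallins, of which *Cryaa* by far the most, and below every one in 5 gamma-crystallins (*Crygb*, *Crygc*, *Crygd*, *Crygf* and *Crygn*), with 24.8% and 23.3% as the shares of all genes. So on replicate 1 *Cryaa* and the beta-crystallins *Cryba1*, *Cryba2*, *Crybb1* and *Crybb3* lay above the controls while no gamma-crystallin of chromosome 1 did.

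**Figure D3:**
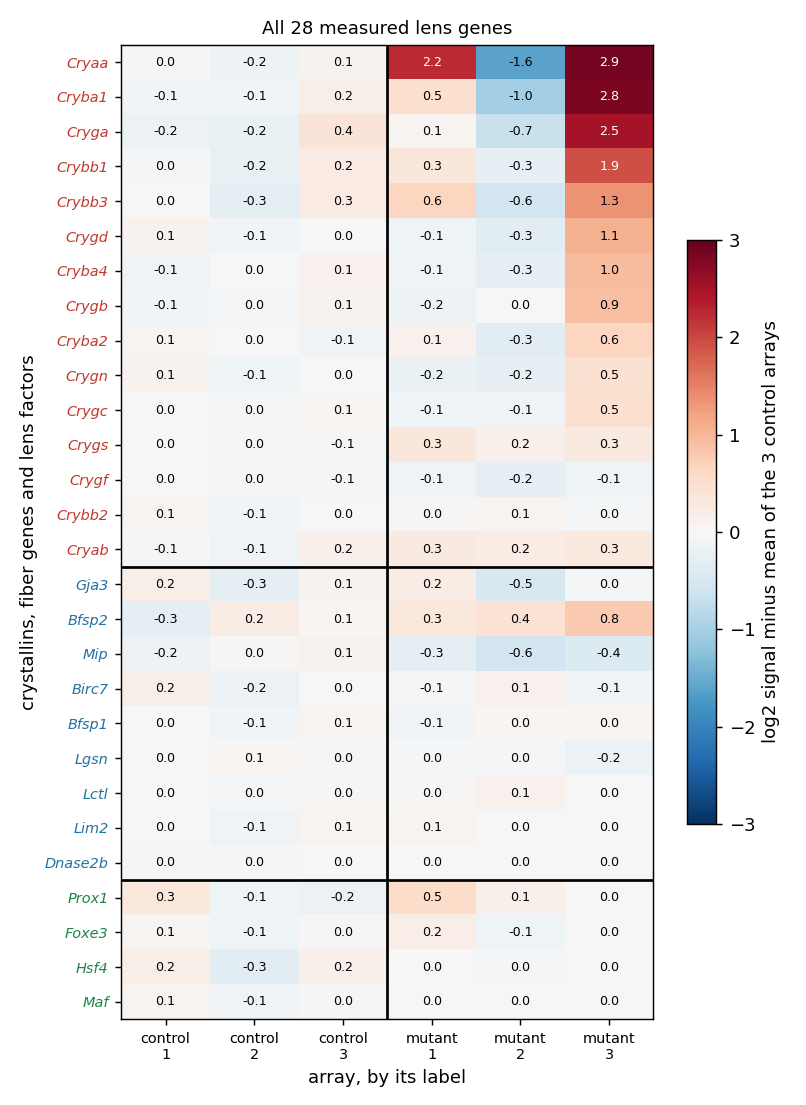
Log2 signal of each of the 28 measured lens genes (rows, by class and by range) on each array (columns) minus the mean of the 3 control-labelled arrays, in colour and in figures. The column of mutant replicate 3 is red down most of the crystallins and near 0 in the fiber genes other than *Bfsp2* and *Mip*, and in the factors.

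Within the mutant-labelled arrays the median range of a gene was 1.06 over the crystallins, 0.13 over the fiber genes, 0.21 over the factors and 0.14 over all genes. Within the control-labelled arrays it was 0.23, 0.17, 0.36 and 0.17. These medians mix bright and dim probe sets: without the dim ones, which are 8 of the 15 crystallins, 6 of the 9 fiber genes and 1 of the 4 factors, the medians over the mutant-labelled arrays were 1.93, 0.47 and 0.35. The range reached 1 (a doubling) among the mutant-labelled arrays in 8 of 15 crystallins, 0 of 9 fiber genes and 0 of 4 factors, and in 0.386% of all genes (77 of 19938). Among the control-labelled arrays 0 of the 28 reached it, and 0.451% of all genes. Wide ranges were not particular to the crystallins. Of 17 measured neural retina markers, 11 reached 1 among the mutant-labelled arrays (median range 1.60) and 14 among the control-labelled arrays (median 1.78). In the other lists of cell type markers 0 genes reached it in either group. Where the limit fell, *Crygb* was just inside with 1.06 and *Cryba2* just outside with 0.97.

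**Figure D4:**
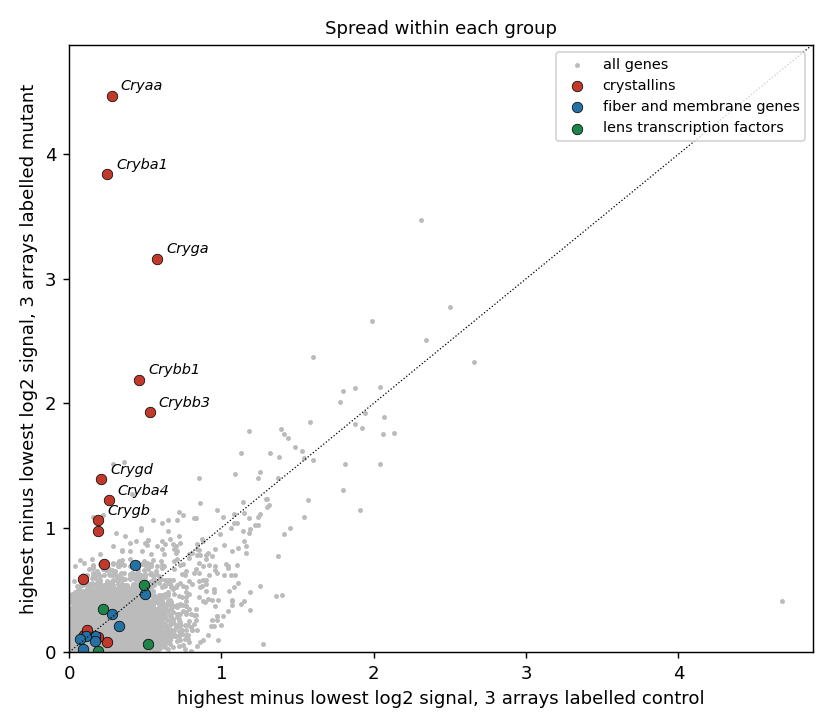
Highest minus lowest log2 signal over the 3 control-labelled arrays (horizontal axis) and over the 3 labelled mutant (vertical axis) for all 19938 genes (grey) and the lens genes (coloured), with a dotted line where the 2 are equal. The 8 named crystallins vary by 1.06 to 4.47 among the mutant-labelled arrays and by at most 0.58 among the controls.

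Mutant replicate 3 was then compared with all other arrays at once. At a margin of 0.5 on the log2 scale, chosen after the values were seen, 9 of 19938 genes were higher on this array than on each of the other 5, and all 9 were crystallins: *Cryba1* (by 2.33), *Cryga* (2.11), *Crybb1* (1.61), *Crygd* (0.96), *Cryba4* (0.83), *Crygb* (0.79), *Crybb3* (0.70), *Cryaa* (0.64) and *Cryba2* (0.53). Control replicate 1 and mutant replicate 1 each had 11 such genes, control replicate 2 had 2, control replicate 3 had 3 and mutant replicate 2 had 0, with no lens gene on any of them. At a smaller margin of 0.3 the count on mutant replicate 3 was 33, of which 12 were lens genes and 21 were not. In the opposite direction, 15 genes were lower on mutant replicate 3 than on every other array by 0.5, more than on any other array, and 0 of them were among the 28 lens genes. *Sox2*, a further gene active in the lens, was among the 15 (4.81 there and 5.48 on the next lowest array). So were the neural retina markers *Rax*, *Six6* and *Neurod1*. A further 2 genes were lower on mutant replicate 2 than on every other array by 0.5, and both were crystallins (*Cryaa* and *Cryba1*). Over all 35556 probe sets, 68 were higher on mutant replicate 3 by 0.5. Of these, 58 have no symbol here, and the other 10 were the 9 crystallins and the probe set shared by *Crygf* and *Cryge*. Probe sets without a symbol met the margin on every array, from 34 to 154 of them.

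Of the 9 fiber genes 3 were bright enough to follow, and each had a pattern of its own. *Mip* had 5.67, 5.88 and 5.95 on the control-labelled arrays and 5.57, 5.25 and 5.43 on the mutant-labelled arrays. All 3 mutant-labelled pools were lower, including replicate 3, and replicate 2 was the lowest of all 6. The log2 difference was -0.42 (95% confidence interval from -0.65 to -0.18, standard error 0.10, limma adjusted p = 0.31). *Bfsp2*, which codes for a protein of the beaded filaments of fiber cells, had 4.49, 4.99 and 4.82 against 5.08, 5.21 and 5.55, all higher on the mutant-labelled arrays and highest on replicate 3 (log2 difference 0.52, 95% confidence interval from 0.16 to 0.87, standard error 0.15, limma adjusted p = 0.51). So the 2 fiber genes with the smallest p differed in opposite directions.

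*Gja3*, a connexin of lens fibers, had 6.42, 5.99 and 6.35 against 6.48, 5.78 and 6.21, with overlapping groups and a log2 difference of -0.10 (standard error 0.18, limma adjusted p = 0.99). Its lowest array was mutant replicate 2, as in most crystallins, and its range over the mutant-labelled arrays, 0.70, was close to the 0.71 of *Crygn*, but replicate 3 lay within the controls. The other 6 varied by 0.09 to 0.33 over all 6 arrays, and all 6 were dim: *Bfsp1*, the partner of *Bfsp2* in the beaded filament, *Lim2*, a fiber membrane protein, *Lgsn*, a lens protein related to glutamine synthetase, *Lctl*, *Birc7*, and *Dnase2b*, the nuclease that degrades the DNA of fiber nuclei. The deposited values carry no detection call, so for these 6 a low level cannot be told apart from none.

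None of the 4 lens factors was highest on mutant replicate 3, where 18.1% of all genes were. With only 4 genes this does not set the factors apart from other genes. *Prox1*, needed for fiber elongation, had 5.47, 5.03 and 4.98 against 5.70, 5.31 and 5.16, highest on mutant replicate 1 (log2 difference 0.23, standard error 0.17, limma adjusted p = 0.97). *Hsf4*, a heat shock factor of lens fibers, had 4.62, 4.11 and 4.60 against 4.46, 4.40 and 4.46. *Maf*, which activates crystallin genes through the core marked above, had 6.82, 6.63 and 6.79 against 6.76, 6.75 and 6.76, so that the 3 pools between which *Cryaa* differed 22.2-fold were within 0.01 of each other. *Foxe3*, a factor of the lens epithelium, varied by 0.35 over the 6 arrays, with mutant replicate 1 above every control-labelled array and replicate 2 the lowest. *Prox1* and *Maf* are also made outside the lens, in the retina and in mesenchyme among other places.

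In summed linear signal the 15 crystallins came to 714, 668 and 813 on the control-labelled arrays and to 1058, 661 and 1919 on the mutant-labelled arrays. Without *Cryaa* the sums were 655, 617 and 751 against 793, 642 and 1505, so that the excess on replicate 3 did not come from 1 gene. The fiber genes summed to 247, 238 and 261 against 257, 220 and 251, and the factors to 223, 184 and 206 against 227, 204 and 204. On replicate 3 the fiber and factor sums were thus inside the range of the controls. Bright genes weigh most in such sums, among the factors *Maf*, and opposite changes can cancel. In the fiber genes on replicate 3, *Bfsp2* was 1.73-fold and *Mip* 0.756-fold of the control mean.

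**Figure D5:**
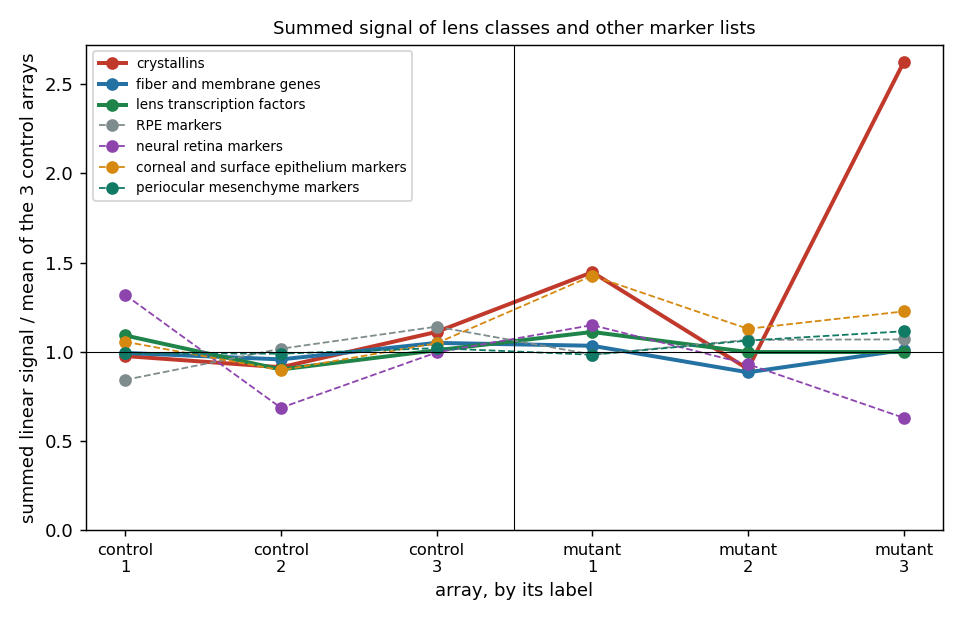
Summed linear signal of the 3 lens classes (solid) and of 4 other marker lists (dashed) on each array, divided by the mean of the 3 control-labelled arrays. The crystallins stand apart on mutant replicate 3 (a sum of 1919 against 668 to 813 on the controls), while the neural retina list is at its lowest there.

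The profile of the crystallins was then sought in other genes. Among the 213 genes that ranged over at least 1 on the 6 arrays, the Pearson correlation with the mean deviation of the crystallins was computed as a description over 6 arrays, which share the single high array. The crystallins among these genes are part of that mean and are not counted. *Bfsp2* reached 0.58. Outside all the lists read here, lens or marker, the 10 genes with the highest values were *Dpep1* (0.57), *Serpinb3a* (0.53), *Bdh2* (0.47), *S100a1* (0.47), *Rbm11* (0.46), *Cyp1b1* (0.46), *Pkp1* (0.45), *Lrmda* (0.44), *Chrm4* (0.43) and *C2* (0.42). Marker genes of other cell types were left out of this ranking. *Dpep1*, the nearest, had 6.36, 6.17 and 6.30 against 6.69, 6.97 and 7.27, and so was not low on mutant replicate 2 as the crystallins were.

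Other lens genes, further genes whose symbols begin with Cry and other small heat shock proteins were read on the same fit. Of 20 further genes active in the lens 18 were measured, with 0 higher and 0 lower at an adjusted p under 0.05 and a median log2 difference of -0.05. The 2 with the widest range were *Sox2* (7.28, 5.48 and 6.55 against 6.91, 6.13 and 4.81) and *Aldh1a1* (8.60, 7.59 and 8.11 against 8.02, 7.11 and 6.94). Both were lowest on mutant replicate 3, where the crystallins were highest, and both are also genes of the neural retina. The 9 genes outside the lens families whose symbols begin with Cry had a median of 0.01 with 0 called. *Crym* (range 0.47) and *Cryl1* (0.38) varied most. Among the 9 are *Cry1* and *Cry2*, which code for cryptochromes and not for crystallins. The 7 other small heat shock proteins had a median of 0.04 with 0 called, *Hspb9* (range 0.61) and *Hspb1* (0.53) varying most. *Hspb2*, the neighbour of *Cryab*, ranged over 0.13.

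Markers of other cell types were read on the same arrays. Of 17 measured neural retina markers 0 were called, and their summed linear signal was 2716, 1412 and 2052 on the control-labelled arrays and 2368, 1917 and 1297 on the mutant-labelled ones. That sum was lowest on mutant replicate 3, and 9 of the 17 were lowest there, as were 2584 of all 19938 genes. *Neurod1* (6.70, 4.71 and 5.92 against 6.43, 5.55 and 3.76) and *Neurod4* (6.42, 3.76 and 5.73 against 6.28, 5.41 and 3.95), factors of developing retinal neurons, had the widest ranges, and both varied among the control-labelled arrays as well. Of 16 measured markers of the corneal and surface epithelium, 2 were called higher (*Aldh3a1*, log2 difference 1.32, limma adjusted p = 0.022, and *Dsg3*, 0.68, limma adjusted p = 0.033), and the sums were 4711, 3999 and 4674 against 6364, 5035 and 5470. These were above the controls on all 3 mutant-labelled arrays and highest on replicate 1.

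Of 14 measured RPE markers, 3 were called higher (*Rrh* by 1.35, *Rlbp1* by 1.0 and *Tyrp1* by 0.94 on the log2 scale) and 1 lower (*Ttr*, -2.10), each with its 3 mutant-labelled pools within 0.22 of each other. These directions follow the array labels, and the paper reports *Tyrp1* as reduced in the mutant. The RPE sums, 5679, 6855 and 7690 against 6635, 7191 and 7209, did not set replicate 3 apart. Mesenchyme (21786, 21747 and 22429 against 21615, 23362 and 24510) was highest on replicate 3, and 0 of its 11 measured markers were called, with *Lum* (range 0.39) and *Prrx1* (0.38) varying most. Muscle had 1 gene called of 15 (*Myh11*, higher by 1.78). Of the measured markers of endothelium, macrophages and red cells (10, with *Alas2* and *Cdh5* the widest at 0.83 and 0.61) and of melanocytes (7, with *Sox10* and *Ednrb* the widest at 0.33 and 0.28) 0 were called. The part of these cell types in the crystallin signal was not tested, nor whether that signal came from lens cells in the pools or from transcription in the RPE.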

How the data were processed

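RNA of dissected E15.5 RPE (300 ng a sample, C57BL/6J background, controls littermates) was hybridised to 6 arrays, 3 labelled control and 3 labelled mutant, and groups and replicate numbers were taken from the labels. The authors deposited a table of the log2 signal of 35556 probe sets on each array, already summarized and normalized. They also deposited a table of 100 entries with group means, an unadjusted p-value, a linear ratio and fold changes given as a score with a sign, which was used only to compare the direction of the tables. Partek is named in the submitters' processing notes, but its version and how background was corrected and probes were combined are not given in these sources. The number of columns of per-sample values left unused is 0.

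The platform annotation gave 23410 probe sets a symbol (21789 exactly 1, 1621 several, 12146 none), and those with several named no gene. All 28 measured lens genes matched a current mouse gene and 0 were renamed. The comparison of groups used the lmFit and eBayes functions of limma 3.58.1, without covariates (R 4.3.3), and took the deposited log2 values of the 23410 probe sets, with p-values adjusted by Benjamini-Hochberg across that whole set and a threshold of 0.05. The script was tested on simulated data. Other values were computed in Python 3.11.15 with pandas 2.3.3. A probe set is called dim where its mean is under the median of 4.89. The 3 arrays a group limit the precision, and arrays give no read depth. Promoter letters are from RefSeq (GRCm38.p6).

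All lens genes are named. Values on all 6 arrays were to be given for those with a range of at least 1 or an adjusted p under 0.05 and for the 2 widest of each class, and were given for further ones as well. Named besides are, from each other list, up to 4 genes past the threshold, taken by p, or the 2 of widest range where none passed, and the 10 genes outside the lists most like the crystallins. Further genes named from these lists, *Dct*, *Rpe65*, *Best1*, *Col1a1*, *Krt5* and *Hspb2* among them, were chosen after their values were seen. The members, lists and motifs were chosen with earlier results of these data known. Alternatives were another scaling, other probe set and dimness rules, a replicate block, the methods' t-test and leaving out each array.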

Additional observations from a re-analysis of the deposited data

Results flagged for a closer look

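The probe set shared by *Crygf* and *Cryge* (10355188) enters no comparison of single genes, since it carries both symbols. Its log2 signal was 4.86, 4.68 and 5.03 for the control-labelled arrays and 4.64, 4.77 and 5.85 for the mutant-labelled ones. It drew attention because mutant replicate 3 lay 1.0 above the control mean and above every other array. The log2 difference of the groups was 0.23 (standard error 0.29, limma adjusted p = 0.99). The probe set of *Crygf* alone had no such step, and what part of the signal is *Cryge* was not tested.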

How the results depend on the processing

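The count of lens genes called, 0, was kept under 13 of 14 alternatives and was 1 without mutant replicate 2 (*Cryaa*). Of 377 values of single lens genes, 359 kept their direction and side of the threshold, 17 in 13 genes changed sign and 1 passed the threshold. Signs were compared at 2 decimals, so that *Crygn* (-0.23 to 0.13 with 1 array left out), *Hsf4* (-0.17 to 0.09), *Birc7* (-0.09 to 0.08) and *Dnase2b* (-0.02 to 0.02), at 0.00 to begin with, have no sign to change. The 17 changes came from leaving out 1 array. The lowest and highest differences were then -0.27 and 1.65 for *Cryba1*, -0.10 and 0.38 for *Cryba2*, -0.18 and 0.43 for *Cryba4*, -0.29 and 1.29 for *Cryga*, -0.07 and 0.45 for *Crygb*, -0.10 and 0.19 for *Crygc*, and -0.22 and 0.48 for *Crygd*, each below 0 only without mutant replicate 3. *Cryaa* stayed above 0, from 0.31 to 2.55. They were -0.03 and 0.07 for *Crybb2*, -0.04 and 0.05 for *Bfsp1* and for *Maf*, -0.02 and 0.06 for *Lim2*, -0.08 and 0.09 for *Foxe3*, and -0.26 and 0.09 for *Gja3*. The median over the crystallins was 0.25 and fell to -0.10 without mutant replicate 3 (highest 0.38), and was 0.47 without dim probe sets; that of the fiber genes ran from -0.04 to 0.01 and was -0.10 without dim probe sets.

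Over all named probe sets 85 were called, 41 with all probe sets tested, 0 by the methods' t-test after adjustment (1422 had an unadjusted p under 0.05 in limma), and 26 to 85 with 1 array left out (37 without control replicate 3, 48, 26 and 31 without mutant replicates 1, 2 and 3). Without dim probe sets the median range over the mutant-labelled arrays was 1.93 for the crystallins, 0.47 for the fiber genes and 0.35 for the factors. Added after seeing the data were changes to the count of 9 genes, all lens genes, that stood out on mutant replicate 3. It was 5, with 5 lens genes, without dim probe sets, 33 with 12 lens genes at a margin of 0.3, 3 with 3 at a margin of 1, 68 over all probe sets, and 9 with 9 under both other scalings. So the margin of 0.3 also takes in 21 genes that are not of the lens lists.

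Deviations of same-numbered arrays correlated at 0.37, -0.06 and 0.07, and those of arrays with unlike numbers at -0.44 to 0.37. With 3 arrays a group these values cannot show whether the replicate numbers pair the arrays. With the replicate block 77 probe sets were called and, as without it, 0 lens genes. The cause of these changes was not tested, beyond the arrays left out. Dim probe sets (15 of the 28 lens genes) limit what can be said of fiber genes.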
